A study of Mus musculus with 28 samples.

Results

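The genes described here encode the oxidative phosphorylation machinery, the respiratory chain and the ATP synthase of the inner mitochondrial membrane. They were chosen by symbol: protein-coding genes named Ndufa, Ndufb, Ndufc, Ndufs or Ndufv, the Sdha to Sdhd genes, Uqcr genes, Cox4 to Cox8 genes, Atp5 genes, and the mt-Nd, mt-Co, mt-Atp and mt-Cytb genes. The rule found 107 of the 55413 gene IDs in the files, of which 94 lie in the nuclear genome and 13 in the mitochondrial genome. By complex, these were 43 genes of complex I, 8 complex I assembly factors that share the Ndufa prefix, 4 genes of complex II, 9 of complex III, 23 of complex IV and 20 of complex V.

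RNA was sequenced from splenic T cells, labelled CD3+ and isolated with magnetic beads, of male C57BL/6J mice aged 8 to 12 weeks. There was 1 library per mouse and there were 5 groups, with 1 dose a day for 11 days in those that were treated. The rPS mice (n = 5) received injections under the skin of rapamycin loaded into polymersomes, hollow vesicles made here of poly(ethylene glycol)-block-poly(propylene sulfide), at about 7.5 mg/ml of polymer. The R mice (n = 6) received free rapamycin in 0.2% CMC (carboxymethylcellulose) under the skin, and the RO mice (n = 6) received Rapamune, an oral rapamycin product, by gavage. All 3 drug groups received 1 mg/kg at 0.125 mg/ml. The PS mice (n = 4) received empty polymersomes at the same polymer dose and volume as rPS, and the NT mice (n = 7) were untreated. No group received CMC alone, so the CMC and the free drug cannot be told apart in R.

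Electrons from NADH enter the chain at complex I and those from succinate at complex II, pass through complexes III and IV to oxygen, and drive proton pumping that complex V uses to make ATP. Complex II is encoded wholly in the nucleus, whereas complexes I, III, IV and V are built from subunits of both genomes. Resting T cells depend largely on oxidative phosphorylation, activated T cells add glycolysis, and the kinase mTOR, the target of rapamycin, promotes mitochondrial biogenesis and the translation of many nuclear mRNAs for mitochondrial proteins.

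Total counts per library were 4286897 to 9008490 in rPS, 5137059 to 8844206 in R, 4721530 to 14153507 in RO, 5926267 to 9139935 in PS and 5016231 to 15696546 in NT. In 6 libraries (R replicate 3, RO replicate 3 and NT replicates 3, 4, 7 and 8) the summed level of 10 T cell markers was 127 to 495 CPM (counts scaled to library size), against 671 to 3249.7 CPM in 21 others (RO replicate 7 is not among the 27). These libraries are called T-cell-poor below. Their monocyte and macrophage markers summed to 5605 to 11309 CPM, against 146 to 1949 CPM in the 21 others, and their neutrophil markers to 417 to 3549 CPM, against 5.06 to 222 CPM. The T cell marker sum had a median of 1572 CPM in rPS, 1382 in R, 1592 in RO, 1732 in PS and 414 in NT. In NT it ran from 198 to 3249.7 CPM. No marker of these lists was at 0 in all libraries. RO replicate 7 had a count of 0 for 50 of the 107 genes, the mitochondrial ones included, and was left out for those 50. Malat1 and mt-Rnr2, an abundant nuclear RNA and the large mitochondrial ribosomal RNA, were at 0 in every NT library, and no other gene at 10 CPM or more elsewhere was, so a difference in how NT was processed cannot be told apart from the treatments. Counts of called genes and median fold changes over NT are also given without 7 libraries, the T-cell-poor ones and RO replicate 7, which leaves NT replicates 2, 5 and 6. Their T cell marker sums were 2819, 671 and 3249.7 CPM, so NT replicate 5 was the lowest of the 21 libraries and nearest to the T-cell-poor ones.

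Levels of different genes are set side by side as CPM per kilobase of exon. Mt-Co1, which encodes the catalytic core of complex IV, had the highest group median in all 5 groups, at 2632 CPM per kb in rPS, 2549.6 in R, 1976 in RO, 1436 in PS and 3827 in NT. Mt-Cytb, the cytochrome b of complex III, came next in each group, at 567 CPM per kb in rPS, 714 in R, 506 in RO, 400.5 in PS and 1550.2 in NT. These ranks hold for the counts as deposited. Nuclear copies of mt-Co2, mt-Co3 and mt-Atp6 had similar values to the genes themselves, so the levels and ranks of these genes are uncertain. The order of the complex I genes differed between groups: in rPS the medians were 509.7 CPM per kb for mt-Nd5, 363 for mt-Nd1, 204 for mt-Nd6, 196 for mt-Nd2 and 97.3 for mt-Nd4. In NT they were 1104 for mt-Nd1, 826 for mt-Nd5, 528 for mt-Nd2, 374 for mt-Nd4 and 298 for mt-Nd6. Among nuclear genes, as medians over all libraries, the order began with the ATP synthase head subunits Atp5a1 at 127 CPM per kb and Atp5b at 95.8, followed by Cox4i1 at 86.8, Cox7a2l at 82.5, Cox8a at 77.0 and Cox6a1 at 74.5. Sdha, the flavoprotein of succinate dehydrogenase, stood at 43.2 CPM per kb.

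Of the 107 genes, 99 had enough counts to be tested, 87 nuclear and 12 mitochondrial. The 8 others were mt-Atp8, a second ID with the symbol Atp5o, and Cox4i2, Cox7a1, Cox7b2, Cox8b, Cox8c and Ndufa4l2, which are known mainly from muscle, testis, lung or hypoxic cells. Cox8c and Cox7b2 had no count in the 27 libraries in which they were read. Cox6a2 and Cox6b2, isoforms best known from muscle and testis, were tested at levels of 0.266 to 5.95 CPM and 0.341 to 3.65 CPM per library. The ubiquitous isoforms of these subunits are Cox4i1, Cox6a1, Cox6b1, Cox7a2 and Cox8a. For counting error alone, the limit that 0 counts set was taken as 3 counts, or between 0.191 and 0.7 CPM by library.

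**Figure D1:**
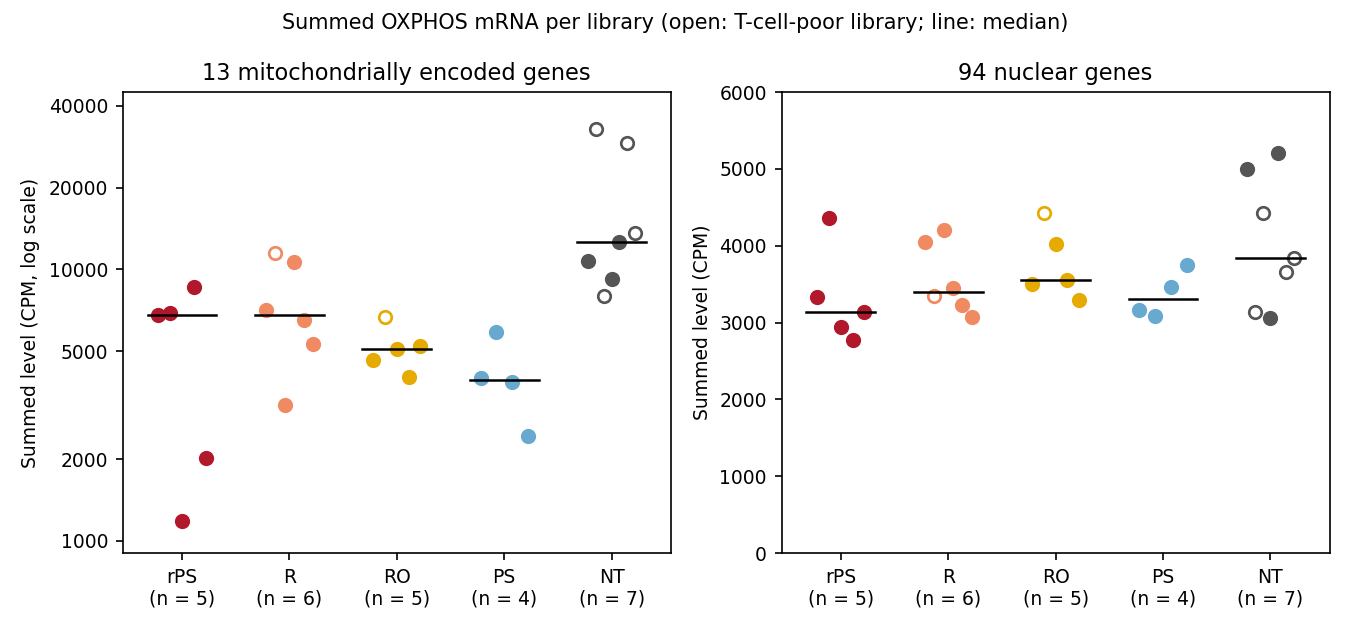
Summed CPM of the 13 mitochondrially encoded genes (left, log scale) and the 94 nuclear genes (right) in each library of rPS, R, RO, PS and NT. Open points are T-cell-poor libraries, lines are group medians, and RO replicate 7 is left out; the mitochondrial sums of RO (4013 to 6684 CPM) and PS (2436 to 5859 CPM) lie below all 7 NT libraries (7942 to 32896 CPM), while the nuclear sums of the groups overlap.

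The summed level of mitochondrially encoded mRNAs had a lower median in each of the 4 treated groups than in NT. The 13 mitochondrial genes summed to 6799.8, 6909, 1187, 8584 and 2013 CPM in the rPS libraries, and to 3162 to 11444 CPM with a median of 6798 in R. They summed to 4631, 6684, 5103, 4013 and 5212 CPM in the 5 RO libraries that could be read and to 3968, 5859, 3852 and 2436 CPM in PS. In NT they summed to 7942 to 32896 CPM with a median of 12623. RO and PS did not overlap NT, while some libraries of rPS and R reached into the NT range. NT replicates 3 and 7, at 32896 and 29256 CPM, stood far above the rest, and both were T-cell-poor. NT replicates 2, 5 and 6, which were not T-cell-poor, had 10685, 9199.5 and 12623 CPM, and RO and PS lay below these 3 as well. In these bulk samples, fewer cells of a type and less RNA per cell cannot be told apart.

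The nuclear sum had a median of 3137 CPM in rPS (2771 to 4366), 3399.7 CPM in R, 3552 CPM in RO, 3311 CPM in PS and 3844 CPM in NT (3061 to 5208). All groups overlapped, although the NT median was 5003 CPM in replicates 2, 5 and 6 alone. The ratio of the mitochondrial to the nuclear sum had a median of 1.58 in rPS, 1.88 in R, 1.32 in RO, 1.18 in PS and 3.01 in NT, where it ran from 1.8 to 10.5 with a median of 2.42 in replicates 2, 5 and 6. Mt-Co1 alone held a median of 59.8% of the mitochondrial sum in rPS, 58.3% in R, 59.9% in RO, 56.7% in PS and 60.5% in NT. Mitochondrial sums, ratios and shares are of the counts as deposited, in which the levels of mt-Co2, mt-Co3 and mt-Atp6 are uncertain. They need not give the true make-up of the mitochondrial mRNA.

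The comparison of rPS with NT asks what the drug in its carrier did relative to no treatment. Levels were tested gene by gene with edgeR's quasi-likelihood test, with Benjamini-Hochberg adjustment over all 17188 genes tested, and a gene is called at an adjusted p under 0.05. Of the 99 genes, 31 (31.3%) were called lower in rPS and 0 higher, where edgeR called 11.6% of all genes lower and 11% higher. DESeq2 called 36 lower and 0 higher. Here and below, counts by DESeq2, at an unadjusted p under 0.05 or with 1 library left out lack the share of all genes. They therefore cannot be set against a background. By genome, 9 of 12 mitochondrial genes and 22 of 87 nuclear genes (25.3%) were called lower. The median log2 fold change was -1.81 over the mitochondrial genes and -0.36 over the nuclear genes, against -0.0089 over all genes. All 12 mitochondrial and 75 of 87 nuclear values were below 0. Without the 7 libraries, 15 genes were called lower, where 2.3% of all genes were. By edgeR 0 of these were mitochondrial, with 10 of 12 mitochondrial genes at an unadjusted p under 0.05. The medians were then -1.44 and -0.60.

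**Figure D2:**
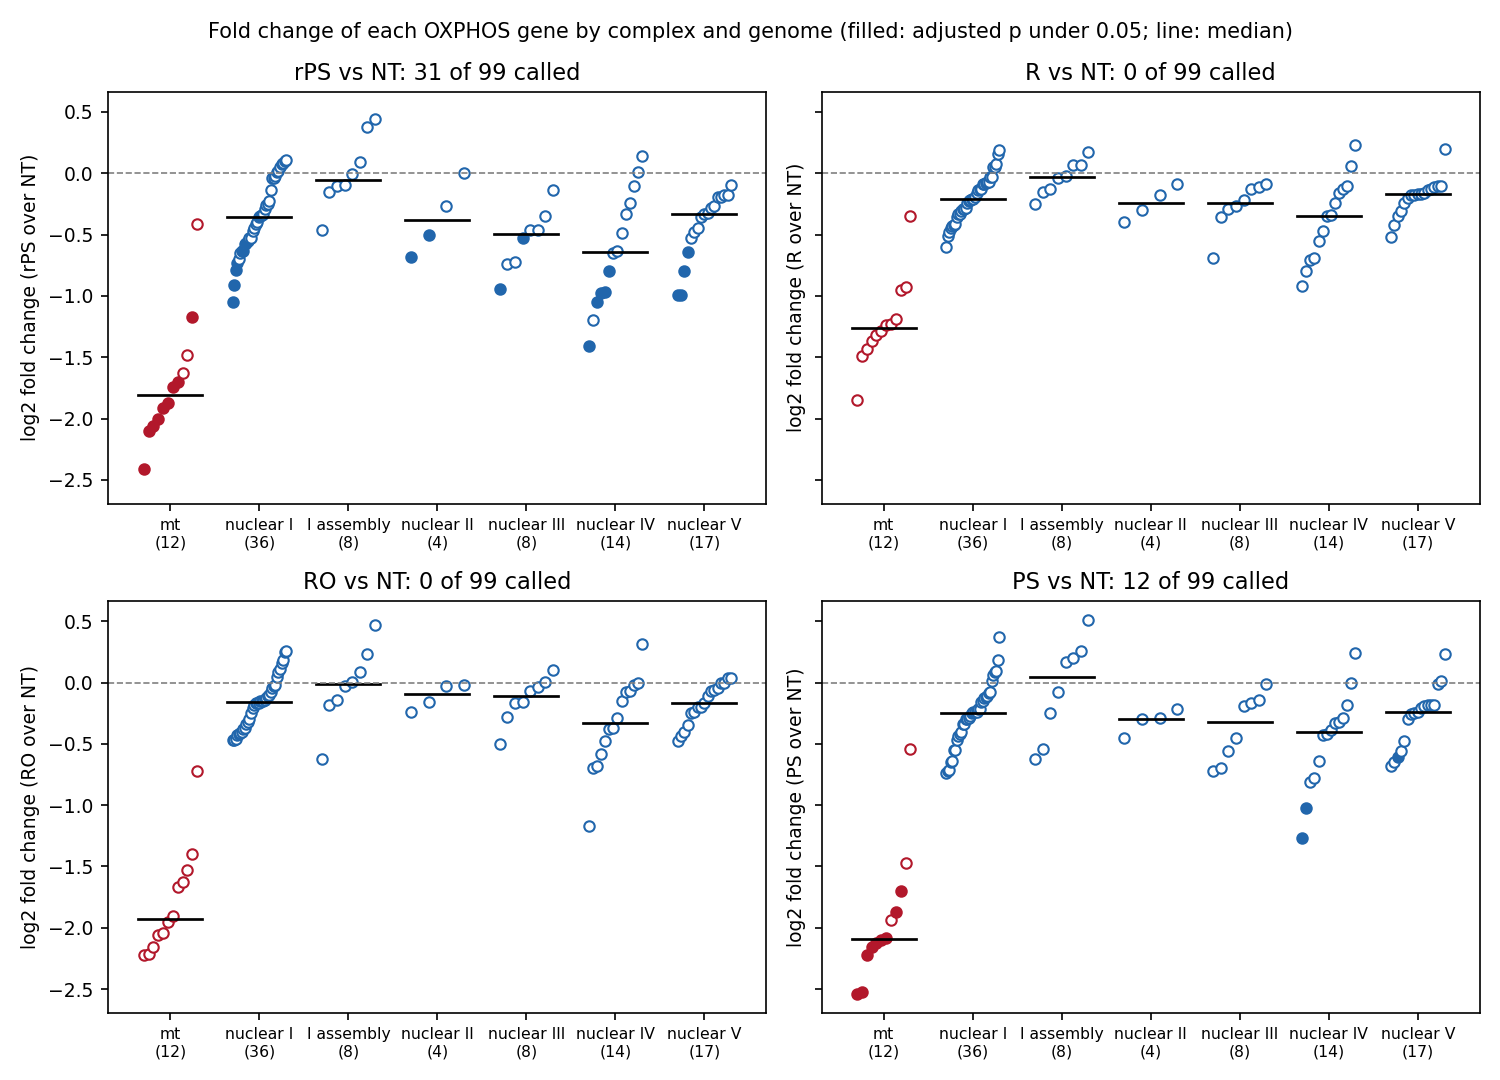
Log2 fold change of each of the 99 tested genes (points) in rPS, R, RO and PS over NT, by genome and complex, with the number of genes in parentheses. Filled points passed an adjusted p of 0.05 in edgeR and lines are medians; the mitochondrial genes (red) have the lowest median in all 4 panels, at -1.81, -1.27, -1.92 and -2.09.

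Among the mitochondrial genes of complex I, mt-Nd2 (ENSMUSG00000064345.1), a membrane-arm subunit, separated the groups completely. It had 241, 203, 40.1, 270.3 and 45.6 CPM in the rPS libraries, against 277 to 1109 CPM with a median of 548 in NT. The highest rPS library stood just under the lowest NT library. The mean was 160.1 ± 109.6 CPM in rPS and 590 ± 304 CPM in NT (SD, n = 5 and 7), a log2 fold change of -1.87 ± 0.46 (SE; edgeR adjusted p = 0.00755). Mt-Nd2 was the only gene of the 99 whose rPS and NT libraries did not overlap, where 1.89% of all genes did not overlap and were lower.

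Mt-Nd5, a proton-pumping subunit, had 1112, 994, 414, 929.7 and 371 CPM in rPS, against 969 to 3219 CPM with a median of 1506 in NT. Its 2 highest rPS libraries lay within the low end of the NT range. The log2 fold change was -1.17 ± 0.31 (edgeR adjusted p = 0.0117), the smallest in size among the 9 mitochondrial genes called. Mt-Nd4 averaged 133 ± 96.2 CPM in rPS and 532 ± 277 CPM in NT (log2 fold change -2.0 ± 0.45, edgeR adjusted p = 0.00465). Mt-Nd1 averaged 302 ± 237 CPM in rPS and 1261 ± 752 CPM in NT (-2.06 ± 0.51, edgeR adjusted p = 0.00781). Replicates 4 and 7 were the lowest rPS libraries for each of mt-Nd2, mt-Nd4, mt-Nd5 and the mitochondrial sum.

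Mitochondrial genes of complexes III, IV and V were called lower as well. Mt-Cytb had 649, 667, 137, 1037 and 197 CPM in rPS, against 884 to 3885 CPM with a median of 1773 in NT. Only rPS replicate 5 reached the NT range, and the log2 fold change was -1.91 ± 0.46 (edgeR adjusted p = 0.00615). Mt-Co1 averaged 3043 ± 2142 CPM in rPS and 10169.8 ± 7210 CPM in NT (-1.74 ± 0.53, edgeR adjusted p = 0.0225), and its call was lost without NT replicate 3, NT replicate 7 or rPS replicate 7 (highest adjusted p 0.0648). Mt-Co2, which carries the entry copper site of complex IV, changed by -1.70 ± 0.41 (edgeR adjusted p = 0.00676), mt-Co3 by -2.41 ± 0.55 (0.0047) and mt-Atp6, the proton channel subunit of ATP synthase, by -2.10 ± 0.60 (0.0166), on the log2 scale.

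Levels of mt-Co2, mt-Co3 and mt-Atp6 are uncertain, because nuclear copies, with at least 98% identity over at least 50% of the transcript, had similar values. The copy of mt-Co2 had a median of 17.5 CPM beside 15.7 CPM for mt-Co2, that of mt-Co3 8.98 beside 9.13 CPM, and that of mt-Atp6 9.59 beside 7.95 CPM. Mt-Nd3 and mt-Nd4l, which also have such copies, were not called in rPS over NT, with log2 fold changes of -1.63 and -1.48 (edgeR adjusted p = 0.0976 and 0.13). For mt-Nd1, mt-Nd2, mt-Nd5, mt-Nd6, mt-Co1 and mt-Cytb no copy met these criteria, and for mt-Nd4 the copy had 4.81 CPM beside 173 CPM.

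Mt-Nd6 lies on the opposite strand of mitochondrial DNA from the other protein genes and encodes a complex I subunit. It had 182, 183, 95.4, 86.2 and 106 CPM in rPS, against 40.8 to 340.2 CPM with a median of 154 in NT. The rPS libraries all lay inside the NT range, and mt-Nd6 was not called (log2 fold change -0.41 ± 0.44, edgeR adjusted p = 0.52). Its share of the mitochondrial sum had a median of 2.68% in rPS (1.0 to 8.04) and 0.901% in NT (0.234 to 3.7). In the T-cell-poor libraries the share was 0.234 to 0.901%, against 1.0 to 8.04% in the 21 others. Whether the cell content had a part in this was not tested, and with the strand setting of the counting unknown, reads of mt-Nd6 and of transcripts opposite to it cannot be told apart.

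**Figure D3:**
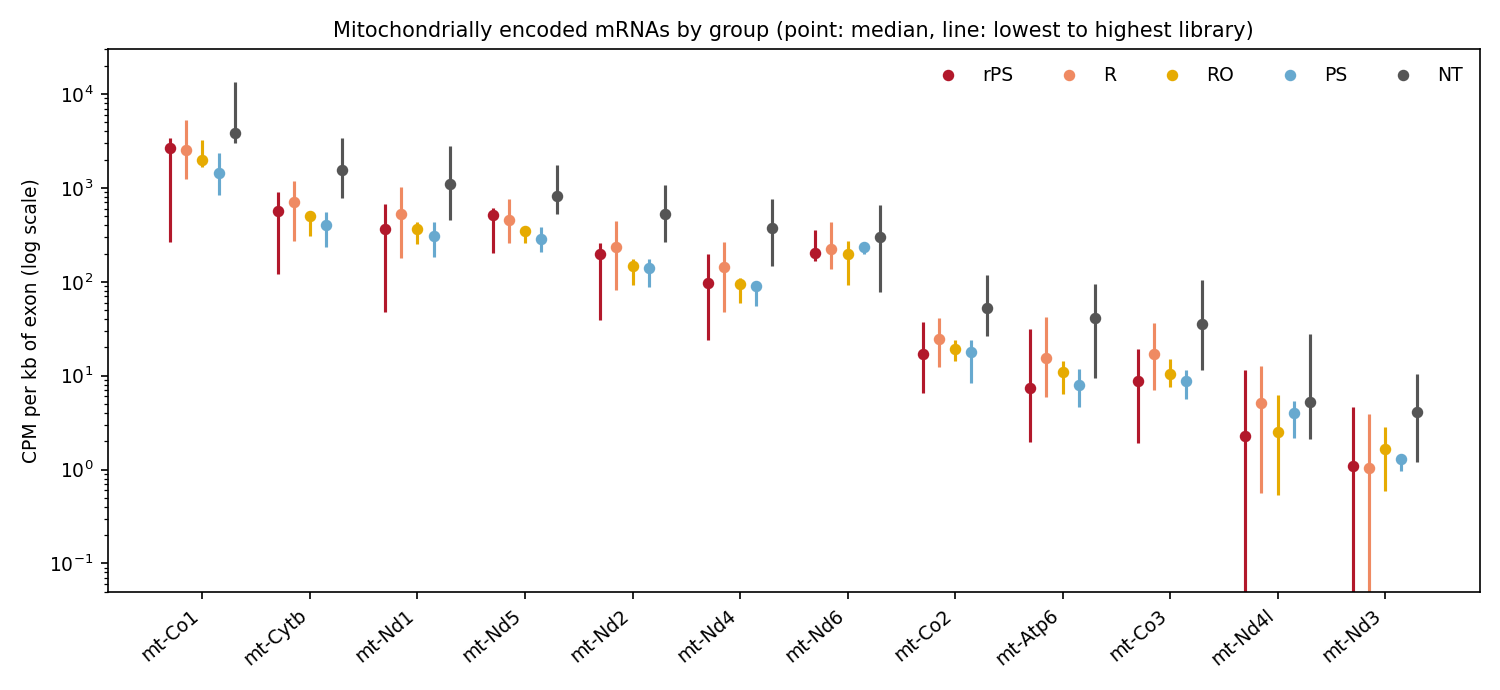
CPM per kilobase of exon of the 12 tested mitochondrial genes in rPS, R, RO, PS and NT (log scale); points are medians and lines run from the lowest to the highest library. A line that runs off the lower edge holds a library at 0; for mt-Nd2 the rPS, RO and PS libraries all lie below the NT libraries, and for mt-Nd6 the rPS, R, RO and PS ranges lie inside the NT range.

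When each of the 28 libraries was left out in turn, 8 of the 9 mitochondrial genes, without mt-Co1, remained called in all 28 fits. None of the 9 was called by edgeR without all 7 libraries, when 3 NT libraries remain. The log2 fold changes then were -1.89 for mt-Nd2 (adjusted p = 0.0545), -1.74 for mt-Nd4 (0.0654), -1.04 for mt-Nd5 (0.0791), -1.43 for mt-Cytb (0.107) and -0.87 for mt-Co1 (0.341), in the edgeR fit.

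In the nucleus, complex I accounted for 9 of the 22 calls in rPS over NT, out of 36 genes tested, with a median log2 fold change of -0.36. The 9 were Ndufa7, Ndufc2, Ndufs8, Ndufv2, Ndufs5, Ndufa3, Ndufc1, Ndufb8 and Ndufb5. Ndufa7, an accessory subunit, averaged 10.1 ± 2.49 CPM in rPS and 20.8 ± 9.58 CPM in NT (log2 fold change -1.05 ± 0.26, edgeR adjusted p = 0.00811). Ndufs8, an iron-sulfur core subunit, averaged 17.2 ± 5.17 CPM in rPS and 26.6 ± 5.97 CPM in NT (-0.63 ± 0.18, edgeR adjusted p = 0.0164). Ndufb8, an accessory subunit of the membrane arm often used as a blot marker of complex I, had 18, 28.5, 11.9, 12.5 and 16.9 CPM in rPS, against 20.4 to 33.5 CPM with a median of 24 in NT. Only rPS replicate 2 lay among the NT libraries, and the call (-0.55 ± 0.19, edgeR adjusted p = 0.0442) was lost in 13 of the 28 fits that leave out a library, among them those without any of rPS replicates 1, 4, 5 and 7.

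Core subunits of the peripheral arm of complex I had log2 fold changes near 0. The log2 fold change in rPS over NT was 0.015 for Ndufs1, the largest iron-sulfur subunit, 0.054 for Ndufv1, which binds the flavin, and 0.073 for Ndufs3, of the ubiquinone-binding module. Ndufs1 averaged 76.4 ± 21.7 CPM in rPS and 75.7 ± 11.5 CPM in NT. None of the 8 complex I assembly factors was called by edgeR or at an unadjusted p under 0.05. Their median log2 fold change was -0.051, and they summed to 54.0 to 71.9 CPM in rPS, against 58.0 to 76.1 CPM in NT.

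In complex II, 2 of 4 genes were called lower. Sdhb, the iron-sulfur subunit, had 35.5, 43.0, 31, 31.8 and 32.5 CPM in rPS, against 30.9 to 61.6 CPM with a median of 49.1 in NT. NT replicate 5 lay at the lower end and NT replicate 3 just under rPS replicate 2, with the other NT libraries above the rPS range. The log2 fold change was -0.50 ± 0.14 (edgeR adjusted p = 0.016). Sdhd, a membrane anchor, had 23.1, 32.4, 21.1, 22.7 and 24.3 CPM in rPS, against 26.2 to 47.8 CPM with a median of 42.5 in NT. The groups overlapped only through rPS replicate 2 and NT replicates 3 and 5 (-0.68 ± 0.16, edgeR adjusted p = 0.00613). Sdhc, the other anchor, was not called at -0.27 (edgeR adjusted p = 0.183). Sdha averaged 202 ± 62.6 CPM in rPS and 203 ± 44.6 CPM in NT, a log2 fold change of -0.0018.

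In complex III, 2 of 8 genes were called lower, with a median of -0.49 on the log2 scale. These were the small subunits Uqcr10 (10.8 ± 3.33 CPM in rPS, 20.8 ± 8.82 CPM in NT, log2 fold change -0.94, edgeR adjusted p = 0.0104) and Uqcrq (21.6 ± 6.72 CPM in rPS, 31.3 ± 7.07 CPM in NT, -0.53, edgeR adjusted p = 0.034). The core subunit Uqcrc1 and the Rieske iron-sulfur protein Uqcrfs1 were not called, with log2 fold changes of -0.14 and -0.35.

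Complex IV had the lowest nuclear median, -0.64, with 5 of 14 genes called lower. Cox7b, a small membrane subunit, had 10.3, 15.5, 4.21, 15 and 5.89 CPM in rPS, against 13 to 51.0 CPM with a median of 25.9 in NT. Replicates 4 and 7 were again the lowest rPS libraries, and NT replicates 4 and 5 lay within the rPS range. The log2 fold change of -1.41 ± 0.35 was the lowest of any nuclear gene called (edgeR adjusted p = 0.00748). Cox5b, a zinc-binding subunit on the matrix side, had 14.2, 29.1, 19.1, 19.3 and 16.2 CPM in rPS, against 17 to 57.9 CPM with a median of 38.4 in NT. NT replicates 3 and 5 lay within the rPS range and the other NT libraries above it (-0.97 ± 0.24, edgeR adjusted p = 0.00696). The other 3 were Cox7a2 (-1.05), Ndufa4 (-0.98), which was first assigned to complex I, and Cox6b1 (-0.80). Cox4i1 at -0.24, Cox5a at -0.49 and Cox6c at 0.14 were not called, and neither were the tissue isoforms Cox6a2 at -1.20 (edgeR adjusted p = 0.0723) and Cox6b2 at -0.33.

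In complex V, 4 of 17 genes were called lower, with a median of -0.33. Atp5c1 (ENSMUSG00000025781.15), the gamma subunit that turns in the centre of the enzyme, had 30.6, 37.7, 21.1, 37.5 and 32.9 CPM in rPS, against 33.0 to 81.5 CPM with a median of 62.8 in NT. NT replicate 5, at 33.0 CPM, was the only NT library within the rPS range. The mean was 32 ± 6.81 CPM in rPS and 63.7 ± 16 CPM in NT, and the log2 fold change of -0.99 ± 0.18 had the smallest p of all 99 genes (edgeR adjusted p = 0.000897; -1.01 and 0.0191 without the 7 libraries). The others were Atp5mpl (-0.99), Atp5f1 (-0.80), a peripheral stalk subunit, and Atp5l (-0.64). The catalytic head subunits Atp5a1 and Atp5b were not called, with log2 fold changes of -0.19 and -0.18, nor were the c-ring genes Atp5g1 (-0.36), Atp5g2 (-0.28) and Atp5g3 (-0.45, edgeR adjusted p = 0.0509).

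**Figure D4:**
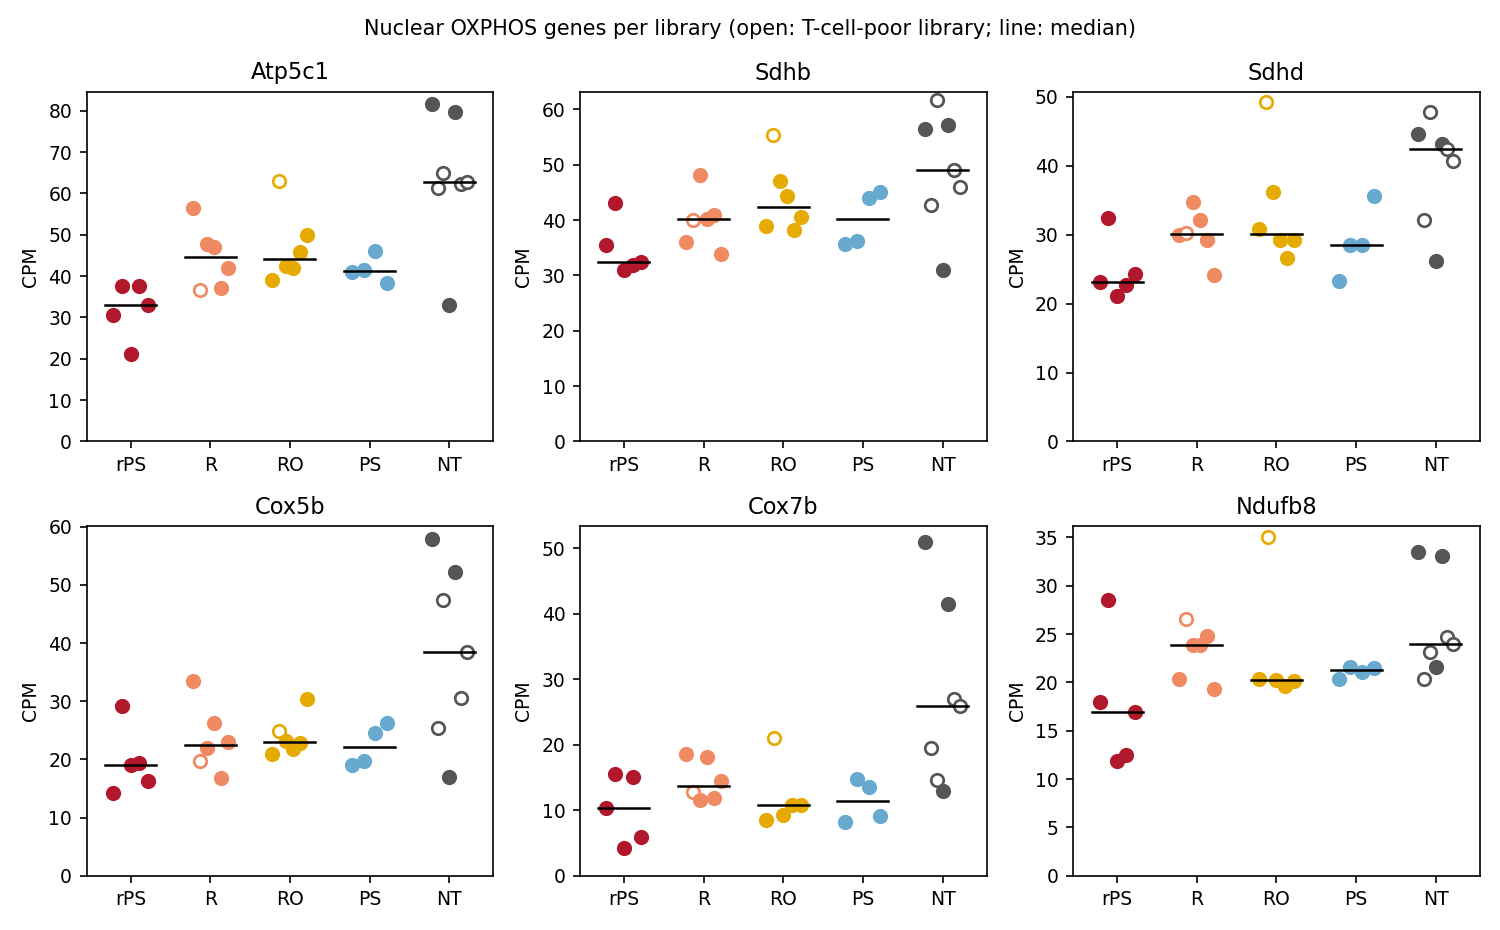
CPM per library of Atp5c1, Sdhb, Sdhd, Cox5b, Cox7b and Ndufb8 in rPS, R, RO, PS and NT; open points are T-cell-poor libraries and lines are medians, and RO replicate 7 is absent where its count was 0. For Atp5c1 the rPS libraries (21.1 to 37.7 CPM) lie below every NT library but replicate 5 (33.0 CPM).

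Of the 22 nuclear calls, 13 remained in all 28 fits that leave out a library: Atp5c1, Sdhd, Cox5b, Cox7b, Ndufa7, Atp5mpl, Ndufc2, Atp5f1, Cox6b1, Uqcr10, Atp5l, Cox7a2 and Sdhb. Without the 7 libraries, 11 of the 31 genes remained called, all nuclear: Atp5c1, Atp5l, Atp5mpl, Cox5b, Cox6b1, Cox7b, Ndufa3, Ndufa4, Ndufa7, Ndufb5 and Uqcr10. In that fit Atp5e, Ndufb9, Ndufs6 and Uqcrh were called as well. Nuclear genes given with values in this comparison outside the fixed subunits and isoforms, such as Atp5c1, Cox7b, Sdhd, Ndufa7, Ndufs8, Uqcr10 and Uqcrq, were picked after their values were seen.

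Promoters of nuclear respiratory genes are known to be bound by NRF1, GABPA and YY1, and in muscle YY1 has been tied to mTOR and the mitochondrial coactivator Pgc1a. RefSeq windows (build GRCm38.p6) from 250 bases before to 50 bases after the start were matched by symbol for 74 of 93 nuclear symbols. The YY1 letters AAGATGGC, on either strand, occurred in 10 of 74 windows (13.5%), against 3.57% of the windows of 17492 protein-coding genes. In 9 of these 10 the letters lay on the sense strand after the start, with their first base 11 to 39 bases after it. A sense match anywhere in the 50 bases after the start was held by 12.2% of the members and 1.48% of all genes. The letters include ATG, and whether this is the start codon was not examined. The palindromic NRF1 motif, spelled in capitals in the windows below, occurred in 7 of 74 (9.46%), against 1.47% of all, and the GABPA letters CCGGAAGT in 5 (6.76%), against 5.69%. Of 19 matched genes called lower in rPS over NT, 3 held the YY1 letters (Ndufc1, Ndufa3 and Ndufb8) and 0 held the other two, while of the 55 other matched genes 7 held YY1, 7 NRF1 and 5 GABPA letters.

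Windows of 30 bases around the YY1 letters (capitals) are shown for the 3 genes called lower and for 2 that were not called, Ndufa9 and Ndufs7, 5′ to 3′ on the strand of the gene. Ndufc1 is at chr3:51408915-51408944 (minus strand), Ndufa3 at chr7:3617384-3617413 (plus), Ndufb8 at chr19:44555393-44555422 (minus), Ndufa9 at chr6:126849097-126849126 (minus) and Ndufs7 at chr10:80249462-80249491 (plus).
Ndufc1: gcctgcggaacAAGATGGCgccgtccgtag
Ndufa3: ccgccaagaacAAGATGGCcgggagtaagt
Ndufb8: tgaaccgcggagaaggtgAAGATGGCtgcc
Ndufa9: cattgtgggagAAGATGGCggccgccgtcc
Ndufs7: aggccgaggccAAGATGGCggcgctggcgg

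The NRF1 letters (capitals) are shown for 3 genes of the ATP synthase and complex I that were not called, in the same build. Atp5g2 is at chr15:102671070-102671099 (minus strand), Atp5k at chr5:108434430-108434459 (minus) and Ndufa11 at chr17:56717692-56717721 (plus).
Atp5g2: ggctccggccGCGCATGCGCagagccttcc
Atp5k: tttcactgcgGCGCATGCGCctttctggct
Ndufa11: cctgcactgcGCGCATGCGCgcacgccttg

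Empty polymersomes, compared with NT, gave 12 genes called lower and 0 higher by edgeR, where 3.83% of all genes were called lower and 3.44% higher. DESeq2 called 22 lower and 1 higher, with no share of all genes beside it. The 12 edgeR calls were 9 mitochondrial genes and the nuclear genes Cox7b, Cox7a2 and Atp5c1. The mitochondrial median was -2.09 and the nuclear median -0.26 on the log2 scale. Mt-Nd5 had 563, 705, 486 and 380.3 CPM in PS, against 969 to 3219 CPM in NT, and mt-Cytb had 434, 634, 482 and 269 CPM in PS, against 884 to 3885 CPM in NT. The groups did not overlap for either gene. Their log2 fold changes were -1.70 ± 0.35 (edgeR adjusted p = 0.0284) and -2.16 (0.0328). Mt-Co1 averaged 2346 ± 968 CPM in PS and 10169.8 ± 7210 CPM in NT (-2.12, edgeR adjusted p = 0.041).

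Libraries of PS and NT did not overlap for 8 of 12 mitochondrial genes, namely the 9 called without mt-Atp6, all lower in PS. The same held for 5 of 87 nuclear genes, Atp5f1, Cox5a, Ndufaf7, Ndufv2 and Uqcrb. Of all genes, 4.47% were lower without overlap, a share near that of the nuclear genes. Cox7b averaged 11.4 ± 3.2 CPM in PS and 27.5 ± 14.1 CPM in NT (-1.27, edgeR adjusted p = 0.045), and Atp5c1 averaged 41.7 ± 3.22 CPM in PS and 63.7 ± 16 CPM in NT (-0.61, edgeR adjusted p = 0.0485). None of the 12 calls remained in every fit that leaves out a library. Counts in those fits have no share of all genes beside them. The count was 0 without NT replicate 3, 7 or 8, or without any PS library. It was 5 with NT replicate 4 left out, 23 with NT replicate 5 and 20 with RO replicate 3 left out. It was also 0 without the 7 libraries, where 0.0118% of all genes were called in either direction. In that fit 48 of 99 had an unadjusted p under 0.05, a count with no share of all genes beside it. The mitochondrial median was then -1.62, with all 12 values below 0, and the nuclear median -0.46. The comparisons of rPS and PS with NT share the NT libraries, so their likeness is not independent.

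In free rapamycin (R) compared with NT, 0 of 99 genes were called by edgeR, where 0.832% of all genes were called in either direction. Of the 99, 23 had an unadjusted p under 0.05 and DESeq2 called 4, with no share of all genes for either count. The median log2 fold change was -1.27 over mitochondrial and -0.18 over nuclear genes, and 12 of 12 and 76 of 87 values were below 0. Mt-Cytb had 307 to 1371 CPM with a median of 816 in R, against 884 to 3885 CPM with a median of 1773 in NT, and the ranges overlapped. The smallest p-values were those of mt-Co2 (-1.29, edgeR adjusted p = 0.103), mt-Nd4 (-1.37, 0.114) and Cox5b (-0.71, 0.122). None of the 99 genes separated the R from the NT libraries, where 0.337% of all genes were lower without overlap. The edgeR count was 4 without NT replicate 5, with no share of all genes beside it. Without the 7 libraries edgeR again called 0, where 0.241% of all genes were called. In that fit 29 had an unadjusted p under 0.05, again with no share of all genes. The median was then -0.83 over mitochondrial genes, smaller in size, and -0.37 over nuclear genes, larger in size.

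Oral rapamycin (RO) compared with NT also gave 0 calls by edgeR, where 0.0116% of all genes were called in either direction; 20 had an unadjusted p under 0.05, and DESeq2 called 10, 9 of them mitochondrial. The mitochondrial median was -1.92 and the nuclear median -0.15. Mt-Nd5 had 664, 565, 638, 477 and 628 CPM in RO, against 969 to 3219 CPM in NT, without overlap (-1.53 ± 0.32, edgeR adjusted p = 0.0769). Mt-Nd2 had 171, 105, 155, 95.7 and 179.6 CPM in RO, against 277 to 1109 CPM in NT, also without overlap (-2.06, edgeR adjusted p = 0.0873). Together with mt-Nd1, mt-Nd4, mt-Cytb and mt-Co2, 6 mitochondrial genes were lower in RO without overlap, where 0.367% of all genes were. With 1 library left out, counts have no share of all genes beside them. The edgeR count was 11 without NT replicate 5, 7 without RO replicate 3, and 2 without NT replicate 6 or rPS replicate 4. Without the 7 libraries it was 0, where 0.0118% of all genes were called in either direction. In that fit 37 genes had an unadjusted p under 0.05, a count with no share of all genes beside it. The mitochondrial median was then -1.39 and the nuclear median -0.37.

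Comparisons among the treated groups set drug, carrier and route against one another. R differed from RO in formulation as well as route, so these cannot be told apart there. R over PS and rPS over R also set CMC against polymersomes, and RO over PS differs in route as well as carrier. Across rPS over PS, R over PS, RO over PS, rPS over R and R over RO, 0 of 99 genes were called in each by edgeR and by DESeq2. The share of all genes called in either direction was 0.0873%, 0.0175%, 0%, 0.0116% and 0% in that order. Unadjusted p-values under 0.05 numbered 1 in rPS over PS, 1 in R over PS, 0 in RO over PS, 5 in rPS over R and 0 in R over RO. These numbers, too, have no share of all genes beside them.

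For the mitochondrial genes the intervals were wide. The drug in its carrier over the empty carrier gave a mitochondrial median of 0.21 on the log2 scale, and mt-Cytb differed by 0.25 (95% interval -0.76 to 1.26, edgeR adjusted p = 1.0). Free rapamycin over the empty carrier gave a median of 0.84, and mt-Nd5 averaged 905 ± 349 CPM in R and 533 ± 136 CPM in PS, a log2 fold change of 0.77 (0.062 to 1.47, edgeR adjusted p = 0.605). The median was 0.18 in RO over PS, -0.57 in rPS over R and 0.66 in R over RO, where mt-Nd5 differed by 0.60 (-0.050 to 1.25, edgeR adjusted p = 1.0). For mt-Cytb the log2 fold change was 0.85 (-0.15 to 1.84) in R over PS and -0.60 (-1.51 to 0.32) in rPS over R, and both intervals include 0 as well as differences larger than 2-fold.

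For the nuclear genes the medians were -0.10 in rPS over PS, 0.069 in R over PS, 0.10 in RO over PS, -0.17 in rPS over R and -0.063 in R over RO. Atp5c1 had 30.6, 37.7, 21.1, 37.5 and 32.9 CPM in rPS, against 41.0, 41.4, 46.1 and 38.4 CPM in PS. All rPS libraries lay below all PS libraries, where 1.74% of all genes did so, but the difference was not called (-0.38, 95% interval -0.79 to 0.027, edgeR adjusted p = 1.0). In rPS over R, Atp5l (-0.54, -0.91 to -0.17, adjusted p = 0.287), Atp5c1 (-0.47, 0.346), Atp5mpl (-0.64, 0.366), Ndufa7 (-0.64, 0.388) and Ndufab1 (-0.31, 0.409) had the smallest p-values, all lower in rPS and none called by edgeR. In rPS over PS these were Ndufb2 (-0.41, edgeR adjusted p = 0.616), Uqcrq, Atp5c1, Cox6a2 and Ndufa7. In RO over PS, Sdha and Uqcrb were higher without overlap, where 0.803% of all genes were, and neither was called.

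Genes that serve the same pathway were counted on lists outside the symbol rule, in rPS over NT. Of 21 genes of mitochondrial transcription and biogenesis, 7 were called higher and 1 lower, where 11% of all genes were called higher and 11.6% lower, and the median over the list was 0.063. Polg2, the accessory subunit of the mitochondrial DNA polymerase, averaged 73.5 ± 49.8 CPM in rPS and 22.6 ± 4.72 CPM in NT (log2 fold change 1.70 ± 0.29, edgeR adjusted p = 0.000667). The other 6 that rose were Twnk, the replicative helicase (0.85), the coactivators Ppargc1b (1.07) and Pprc1 (0.84), the mitochondrial RNA polymerase Polrmt (0.67), the catalytic polymerase subunit Polg (0.42) and the transcription factor Nrf1 (0.32). Of the genes called higher, only Ppargc1b is among those named below as still called without the 7 libraries. Slirp, which stabilises mitochondrial mRNAs, averaged 4.37 ± 1.57 CPM in rPS and 10.3 ± 1.57 CPM in NT (-1.22, edgeR adjusted p = 0.0104). Tfam, which packages and transcribes mitochondrial DNA, was at 46.9 ± 12.2 CPM in rPS and 45.8 ± 10.1 CPM in NT and was not called. In PS over NT, Polg2 (1.31), Ssbp1 (0.52), Polg (0.43) and Polrmt (0.61) were called higher, where 3.44% of all genes were. Without the 7 libraries, 0.0118% of all genes were called in either direction in PS over NT.

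Of 16 genes of the citric acid cycle and pyruvate dehydrogenase, 4 were called lower in rPS: Fh1, the fumarase (25.7 ± 5.92 CPM in rPS, 41.2 ± 5.07 CPM in NT, log2 fold change -0.68, edgeR adjusted p = 0.00132), Idh3g (-0.52), Cs, the citrate synthase (-0.30), and Suclg1 (-0.33), which is 25% of the list, with a median of -0.23. Of 78 mitochondrial ribosomal protein genes, 13 were called lower and 1 higher (Mrps26, 0.56), with a median of -0.31. The share called lower was 16.7%, against 11.6% of all genes; no test of the list was made. Of 35 further assembly factors, Sdhaf2, which inserts the flavin of complex II (-0.43), Coa3 (-0.83) and Cox15 (-0.35) were called lower, which is 8.57% and below the share of all genes, and Cox11 (0.81) higher. Of 18 carriers and further subunits, the ADP/ATP carrier Slc25a5 (-0.59), Ucp2 (-0.54), Vdac2 (-0.48) and Higd2a (-0.81) were called lower, which is 22.2%, and Dhodh, which feeds electrons to ubiquinone in pyrimidine synthesis (0.58), higher. Without the 7 libraries Ppargc1b, Fh1, Sdhaf2, Coa3, Mrpl32, Mrpl30 and Mrpl13 remained called in the same direction. Polg2 was not called by edgeR in R over NT (0.36, adjusted p = 0.558) or RO over NT (0.50, adjusted p = 0.395). In PS over NT, where 3.83% of all genes were called lower, Gpd2 (-0.46) was the one call outside the list of mitochondrial transcription and biogenesis.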

How the data were processed

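The authors deposited expected counts per gene, estimates that need not be whole, in 1 file per mouse; 21.3% to 25.0% of each library's nonzero values carried a fraction. Trimmomatic 0.39, STAR 2.7.5a, Cufflinks 2.1.1, Cuffdiff and build GRCm39 are named per the submitters' processing notes. The counting tool, the annotation and whether counting used strand were not given in the sources used here. Expected counts were rounded to whole numbers. Symbols and exon lengths came from GENCODE M21 (build GRCm38), which matched 52082 of 55413 IDs, so no gene coordinates are given, and promoter windows are RefSeq GRCm38.p6.

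The members and lists were chosen with earlier results of these data known. The labels gave the groups. The main test was edgeR 4.0.16 in R 4.3.3 (two-sided quasi-likelihood with robust fitting, TMM scaling and filterByExpr), with all 5 groups sharing 1 estimate of the spread. Genes with counts in RO replicate 7 were fitted on 28 libraries and genes at 0 there on 27, and p-values were adjusted (Benjamini-Hochberg) over all 17188 genes of both fits. The 9 comparisons set each treated group against NT, each drug group against PS, rPS against R, and R against RO. Levels are CPM on TMM-scaled library sizes. The labels give 1 library per mouse and name no litters or batches. The fit was tested on simulated data. Copies were sought among transcripts with blastn 2.17.0.

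The naming rule took up to 8 called genes with the largest rise and 8 with the largest fall per comparison at a mean of at least 2 CPM, all mitochondrial genes, fixed subunits of each complex, tissue isoforms, and, where fewer than 3 were called, the 5 with the smallest p. Alternatives were DESeq2 1.42.0 and its size factors, no low-count filter, a library size without mitochondrial, immunoglobulin and haemoglobin genes, library-total CPM for summed levels, all 28 libraries for every gene, without RO replicate 7, without the 7 libraries, the 2 compared groups only, 3 marker covariates, a replicate block and leaving out each library.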

Additional observations from a re-analysis of the deposited data

Results flagged for a closer look

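In 75 sets of values, 1 group of 4 to 7 libraries each, the highest or lowest library was set against the gap to its neighbour (Dixon's test), and 4 stood apart. Chance flags about 1 in 20 such sets. Mt-Co1 made up 34.8% of the mitochondrial sum in rPS replicate 4, and the next lowest rPS library had 55.6%. Atp5c1 had 33.0 CPM in NT replicate 5, and the next lowest NT library had 61.4 CPM. Sdhd had 32.4 CPM in rPS replicate 2, and the next highest rPS library had 24.3 CPM. Cox7b had 21 CPM in RO replicate 3, which is T-cell-poor, and the next highest RO library had 10.8 CPM.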

How the results depend on the processing

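Of the counts of called genes, that of rPS over NT (31) stayed within 1.5 times under DESeq2, its size factors, no filter, a library size without mitochondrial, immunoglobulin and haemoglobin genes, and RO replicate 7 left out. It was 13 with all 28 libraries for every gene, 15 without the 7 libraries, 20 with 3 marker covariates and 4 when only the 2 groups were fitted. That of PS over NT (12) was 1 with no low-count filter, 0 with all 28 libraries, 0 without the 7 libraries, 0 with covariates and 23 by DESeq2. That of R over NT (0) was 1 with covariates and 4 by DESeq2, and that of RO over NT (0) was 10 by DESeq2. The cause was not tested. Apart from the fit without the 7 libraries, no share of all genes stands beside these alternative counts. They therefore cannot be set against a background.

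Leaving out each library in turn gave 23 to 43 calls in rPS over NT, 0 to 4 in R over NT, 0 to 11 in RO over NT, 0 to 23 in PS over NT and 0 in the other 5 comparisons. With the replicate number as a block, the counts were 25 in rPS over NT and 6 in PS over NT. No share of all genes stands beside these counts either. Of 41 same-numbered pairs of libraries 15 correlated above 0.1 (-0.309 to 0.739). The median was 0.0419 for these pairs and 0.00106 for pairs with different numbers. Whether the numbers pair the samples cannot be told from these values, and the main test did not use them.

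For the 275 values of named genes, 10440 alternative values were computed: 10225 kept their side of the threshold, 160 lost the call and 55 gained it. Where a call was made in either fit, 0 changed direction. Changes of direction among values not called in either fit were not counted. Among summed levels, only the NT nuclear median moved, to 5003 CPM without the 7 libraries. Depth limits mt-Atp8 and the low isoforms, and having only 3 NT libraries that were not T-cell-poor limits every comparison with NT.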
